A study of Homo sapiens with 8 samples.

Results

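The genes described here are the long non-coding RNAs whose symbol starts with LINC followed by digits, the systematic name given to intergenic transcripts that have no better-known name. They were chosen by name and by detection alone: a gene had to be listed in both deposited tables and to reach 1 FPKM (fragments counted per length of transcript and per depth of the library) in at least 2 of 7 libraries. Of 143 such rows listed in both tables, 137 met the rule, among 12939 genes of all kinds that met the same detection limit. The second table lists 1114 LINC rows, and 971 of these are not in the first table, so the genes described are those for which both tables hold values. Every row of the first table reaches at least 1.0021 FPKM in a library of set 1. A gene under that level throughout set 1 is therefore left out, whatever its level in set 2. Just outside the rule were LINC02846, LINC00921 and LINC01087, whose second highest values were 0.993, 0.985 and 0.975 FPKM. Just inside it were LINC00412, LINC02539 and LINC02367, at 1.03, 1.03 and 1.05 FPKM.

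The cells carry the label KG-1a, the name of an established acute myeloid leukaemia line of bone marrow origin, and are also given as leukaemia stem cells. All libraries came from cells transduced with a lentivirus carrying a short hairpin RNA and then isolated by fluorescence-activated sorting. One group carried a control hairpin (shCTL, genotype given as wild type) and the other a hairpin against NYNRIN (shNYNRIN, genotype given as knockdown), with 4 libraries each, and the comparison asks what the knockdown changes. The values were deposited as 2 tables: set 1 holds replicates 1 and 2 and set 2 holds replicates 3 and 4, for either hairpin. No time after transduction, drug treatment or hairpin sequence is given, and the labels do not say whether replicates were separate cultures. ShCTL replicate 3 carries no decimals in its table, unlike the rest. Between 10 and 30 FPKM it read lower than shCTL replicate 4 with a median difference of -0.5003. No test of the main comparisons uses it, its values are printed where they show the spread, and set 2 therefore has 1 tested control.

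Long intergenic RNAs are transcribed by RNA polymerase II, are usually capped, spliced and polyadenylated, and carry no long conserved reading frame. Most are made at low levels and in few cell types, many are short-lived because nuclear decay machinery such as the RNA exosome removes them, and a minority have been shown to act on chromatin, on neighbouring genes or on RNA stability. NYNRIN encodes a protein with an NYN domain, a fold found in RNA-cutting enzymes, and a retroviral integrase-like domain. For most of the LINC genes named here no function is established, so each is identified by its position and its level.

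NYNRIN itself read 12.2 and 12.5 FPKM in the shCTL libraries of set 1 against 6.98 and 7.30 in the shNYNRIN libraries, and 10 and 10.4 against 2.83 and 2.84 in set 2. The shNYNRIN libraries were thus lower in both sets, and the remaining NYNRIN level was lower in set 2. Of 10 markers listed for KG-1a and primitive leukaemic cells, 8 are in the second table, and 6 of these reached 1 FPKM in all 3 tested libraries of set 2. CD34, a surface antigen for which KG-1a is known, read 0.681 to 1.79 FPKM over the 7 libraries, and CD7 was under 1 FPKM in each tested library of set 2. PTPRC, the common leukocyte antigen CD45, read 23.2 to 30.7 FPKM. All 5 erythroid markers looked at were at 1 FPKM or more, with a summed level between 83.8 and 98.6 FPKM, and the stromal markers summed to at most 0.324 FPKM in set 2, so the cells are described by their label only. The erythroid sum in the shNYNRIN libraries was 96.9 to 98.6 against 83.8 to 90.5 FPKM in set 1 and 85.8 to 88.8 against 96.0 FPKM in set 2. The sum of the KG-1a and primitive markers moved the other way, at 389.9 to 391.1 in shNYNRIN against 458 to 462 FPKM in shCTL of set 1 and 493 to 494 against 422 FPKM in set 2. Within that sum CD34 went against the total in both sets. It read 1.42 and 1.20 FPKM in shNYNRIN against 0.949 and 0.933 in shCTL of set 1. In set 2 it read 0.765 and 0.681 against 1.79 FPKM in shCTL replicate 4. PTPRC went with the total, at 24.3 and 24.4 against 30.7 and 30.6 FPKM in set 1 and 27.0 and 27.0 against 23.2 in set 2. The part of either sum in the LINC results was not tested. In bulk RNA, fewer cells of a type and less RNA per cell cannot be told apart. As read from the steps of low values, shNYNRIN replicates 3 and 4 were sequenced 1.33 and 1.298 times as deeply as shCTL replicate 4, and read totals are not given for any library.

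Promoters are shown for the genes on which the results below turn: LINC01426, the gene that passed the test over both sets, LINC02761 and LINC01094 among the falls of set 1, and LINC02160, LINC02744 and LINC01215 among the changes of set 2. Each sequence is the window from 250 bases before to 50 bases after the transcription start in RefSeq, GRCh38.p14, written 5′ to 3′ on the strand of the gene. Capitals mark matches to 5 short motifs searched on both strands: the TATA box as TATAAA, the AP-1 motif TGANTCA, the EGR motif GCGNGGGCG, the GATA motif AGATAA and the RUNX motif TGTGGT, and no matches overlapped in the windows printed. The windows are LINC01426 at chr21:34745575-34745874 (plus strand), LINC02761 at chr11:76216041-76216340 (minus strand), LINC01094 at chr4:78645744-78646043 (plus strand), LINC02160 at chr5:33229485-33229784 (plus strand), LINC02744 at chr11:119994681-119994980 (minus strand) and LINC01215 at chr3:108125571-108125870 (plus strand).
LINC01426: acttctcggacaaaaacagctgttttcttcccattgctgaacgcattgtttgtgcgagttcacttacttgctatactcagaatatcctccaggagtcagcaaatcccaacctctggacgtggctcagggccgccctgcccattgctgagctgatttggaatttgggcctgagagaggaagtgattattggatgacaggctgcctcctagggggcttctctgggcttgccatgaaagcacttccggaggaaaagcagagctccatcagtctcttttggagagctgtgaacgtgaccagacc
LINC02761: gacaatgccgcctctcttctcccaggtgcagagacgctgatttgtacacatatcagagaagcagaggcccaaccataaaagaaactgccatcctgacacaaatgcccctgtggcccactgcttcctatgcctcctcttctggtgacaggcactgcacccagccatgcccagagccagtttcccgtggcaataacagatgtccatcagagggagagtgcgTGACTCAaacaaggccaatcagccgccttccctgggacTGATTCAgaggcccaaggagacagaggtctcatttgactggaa
LINC01094: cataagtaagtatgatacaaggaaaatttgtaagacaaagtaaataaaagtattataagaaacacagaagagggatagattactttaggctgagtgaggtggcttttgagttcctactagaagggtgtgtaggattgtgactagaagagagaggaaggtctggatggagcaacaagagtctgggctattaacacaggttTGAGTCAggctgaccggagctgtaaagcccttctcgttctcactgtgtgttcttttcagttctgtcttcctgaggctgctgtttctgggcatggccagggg
LINC02160: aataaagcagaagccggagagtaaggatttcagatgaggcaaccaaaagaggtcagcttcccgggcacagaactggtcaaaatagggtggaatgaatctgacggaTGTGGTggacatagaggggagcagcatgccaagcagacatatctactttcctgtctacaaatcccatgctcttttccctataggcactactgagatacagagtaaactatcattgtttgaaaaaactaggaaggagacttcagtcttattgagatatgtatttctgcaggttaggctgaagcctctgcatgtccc
LINC02744: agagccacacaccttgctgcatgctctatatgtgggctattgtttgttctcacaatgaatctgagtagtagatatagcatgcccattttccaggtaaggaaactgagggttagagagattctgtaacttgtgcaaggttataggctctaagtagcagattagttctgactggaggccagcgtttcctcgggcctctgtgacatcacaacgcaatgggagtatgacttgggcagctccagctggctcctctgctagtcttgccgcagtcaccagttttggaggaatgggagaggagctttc
LINC01215: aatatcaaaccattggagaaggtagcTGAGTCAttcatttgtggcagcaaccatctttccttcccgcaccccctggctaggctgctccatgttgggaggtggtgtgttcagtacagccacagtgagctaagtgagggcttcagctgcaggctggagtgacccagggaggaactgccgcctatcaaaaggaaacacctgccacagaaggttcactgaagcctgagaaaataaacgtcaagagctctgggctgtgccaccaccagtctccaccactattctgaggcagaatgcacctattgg
LINC02761 holds 2 AP-1 letter matches, LINC01094 and LINC01215 hold 1 each, LINC02160 holds 1 RUNX match, and LINC01426 and LINC02744 hold none of the 5 motifs.

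The RefSeq table held a promoter for 86 of the 137 LINC genes, among 27305 promoters of all genes. An AP-1 match was present in 12 of the 86 LINC promoters (14.0%) and in 7.76% of all promoters. A TATA box stood in 12.8% of LINC promoters and 12.0% of all, a GATA match in 11.6% and 10.5%, a RUNX match in 11.6% and 13.1%, and an EGR match in 5.81% and 9.28%. Of the LINC genes called in any comparison below, 16 of 33 had a promoter in the table. Among those 16, 4 held an AP-1 match, 3 a TATA box, 3 a RUNX match, 2 a GATA match and 0 an EGR match. The LINC promoters were poorer in CG dinucleotides, with a median of 7 per window against 14, and 32.6% of them held at least 15 against 48.8% of all promoters. These matches are descriptions of letters, and the proteins that bind there were not measured.

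The LINC genes were low next to other genes of these cells. Their mean level over the 7 libraries had a median of 2.22 FPKM, against 8.402 FPKM over all genes tested, and ranged from 0.836 to 49.6 FPKM. The mean was under 2 FPKM for 62 genes, from 2 to 5 for 47, from 5 to 10 for 17 and at least 10 for 11. In every one of the 7 libraries 100 of the 137 reached 1 FPKM. Their summed level was between 532 FPKM, in shCTL replicate 4, and 589 FPKM, in shCTL replicate 1, and the 10 highest genes made up 35.5 to 37.8% of that sum.

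LINC02506, on chromosome 4 with no coding start within a megabase of its own, was the highest, at 44.0 and 45.7 FPKM in shCTL and 49.4 and 47.7 in shNYNRIN of set 1, and 44.1 in shCTL replicate 4 against 59.2 and 57.3 in shNYNRIN of set 2. Its shNYNRIN values lay above its shCTL values in both sets. LINC00839 on chromosome 10 came next and was steady, between 30.3 and 32.5 FPKM in all 7 libraries, with a log2 difference of -0.03 ± 0.04 (SE) in set 1 and 0.03 ± 0.05 in set 2 (limma, adjusted p = 0.685 and 0.747). LINC02384 read between 20.2 and 26.05 FPKM, LINC01218 between 17.6 and 26.2, LINC01094 between 15.5 and 22.2 and LINC00665 between 13.9 and 15.2. LINC01366, LINC02805, LINC02772 and LINC01684 completed the 10 highest, with means of 14.2, 13.9, 11.7 and 10.3 FPKM. The ranges of LINC02506, LINC00839 and LINC02384 did not overlap over the 7 libraries, while those of LINC02384 and LINC01218 did. LINC01218 lies inside the gene of endomucin, EMCN, on the same strand, so reads of the 2 genes could be shared by the counting, and EMCN itself read 1.17 to 1.82 FPKM.

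**Figure D1:**
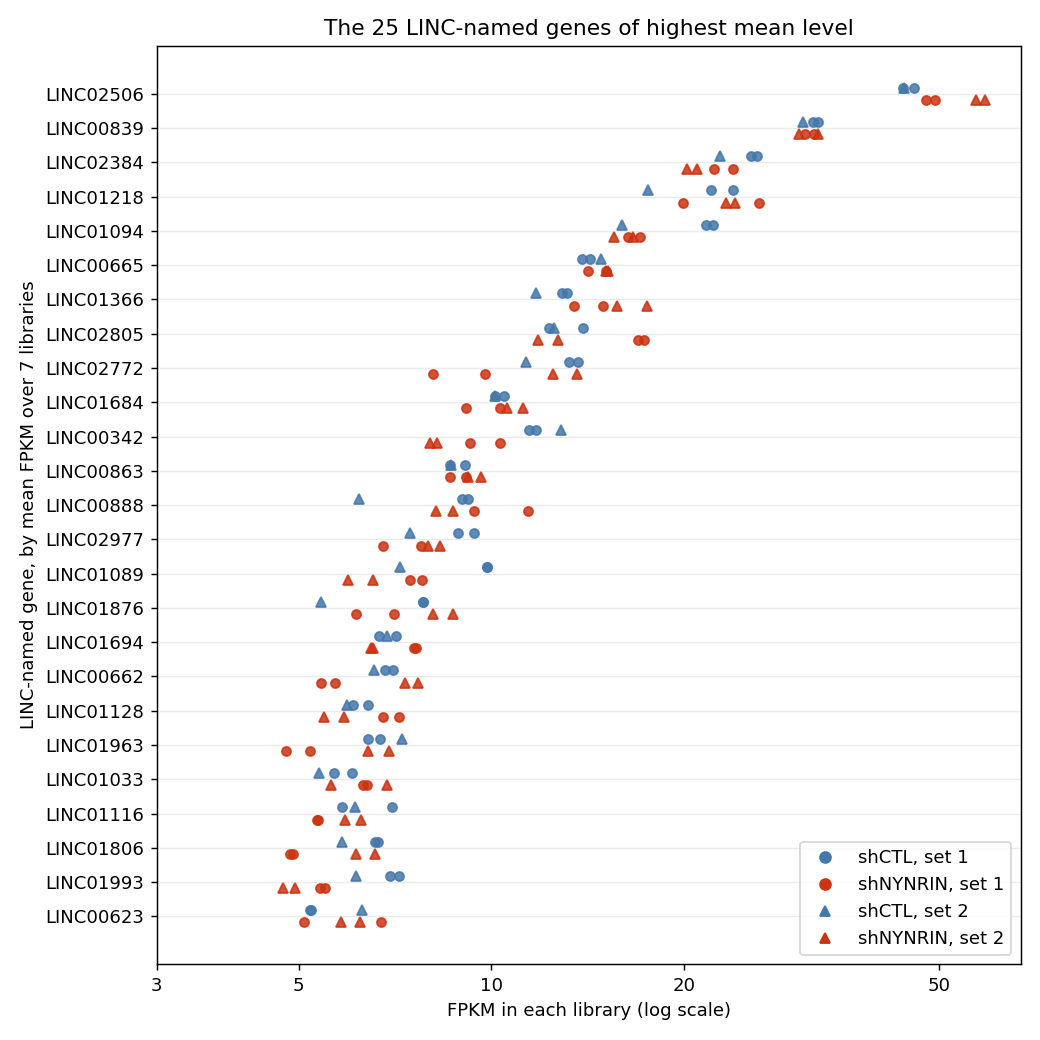
FPKM on a log axis for the 25 LINC genes of highest mean level, 1 row per gene, with 1 point for each of 7 libraries: blue for shCTL, red for shNYNRIN, circles for set 1 and triangles for set 2. LINC02506 stands at the top with a mean of 49.6 FPKM, and LINC00839 keeps within 30.3 to 32.5 FPKM.

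Over both sets together, 1 LINC gene of 137 passed the test (limma on log2(FPKM + 1), Benjamini-Hochberg adjusted p under 0.05), where 0.317% of all genes tested passed, and 28 LINC genes had an unadjusted p under 0.05. Over all genes 25 were higher and 16 lower, a split that became 10 and 19 with upper-quartile scaling and 4 and 4 with quantile normalization. That gene was LINC01426, which read 4.74 and 4.30 FPKM in shCTL and 6.86 and 6.84 in shNYNRIN of set 1. In set 2 it read 3.47 in shCTL replicate 4, a whole number of 3 in shCTL replicate 3, and 5.03 and 4.98 in shNYNRIN. All 4 shNYNRIN libraries lay above all shCTL libraries. The estimate over both sets was 0.48 ± 0.05 on the log2 scale (SE, 3 shCTL and 4 shNYNRIN libraries; limma, adjusted p = 0.0479). A fit with 1 effect for both sets passes most easily genes that move alike in them, so that the shared direction adds nothing to that call. The estimate was 0.51 ± 0.06 in set 1 (adjusted p = 0.00552) and 0.43 ± 0.08 in set 2 (adjusted p = 0.0117). With the replicate block by library-name number the value over both sets was 0.35 (adjusted p = 0.334), and no gene of any kind passed. Quantile normalization (adjusted p = 0.0540) and the removal of any library other than shCTL replicate 4 (adjusted p from 0.146 to 0.175) also took the call away.

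LINC01426 lies on chromosome 21 at 34745757 to 34784886 on the plus strand (GENCODE 29, GRCh38), where it is annotated as an antisense RNA that overlaps no coding gene. The nearest coding gene body, looked up after the values were seen, is RUNX1, a transcription factor of blood stem cells, whose edge is 2915 bases away. RUNX1 read 163 and 157 FPKM in shCTL and 145 and 143 in shNYNRIN of set 1, and 159 in shCTL replicate 4 against 157 and 159 in shNYNRIN of set 2. RUNX1 fell by 0.15 ± 0.03 on the log2 scale in set 1 (limma, adjusted p = 0.0169), while in set 2 its log2 difference was -0.01 ± 0.03 (adjusted p = 0.917). The LINC gene and its neighbour thus moved in opposite directions in set 1.

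LINC00342 and LINC01993 passed with the same direction in each set taken alone, without passing over both. LINC00342, on chromosome 2, read 11.4 and 11.7 FPKM in shCTL and 9.25 and 10.3 in shNYNRIN of set 1. In set 2 it read 12.9 in shCTL replicate 4 and 12 in shCTL replicate 3, against 8.24 and 8.03 in shNYNRIN. All shNYNRIN values lay under all shCTL values. It fell by 0.22 ± 0.06 in set 1 (limma, adjusted p = 0.0454) and by 0.60 ± 0.07 in set 2 (adjusted p = 0.00256), and over both sets its log2 difference was -0.38 (adjusted p = 0.101). The fall in set 2 was larger by 0.38 ± 0.09 (adjusted p = 0.0316).

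LINC01993, on chromosome 17, read 6.95 and 7.16 FPKM in shCTL and 5.50 and 5.40 in shNYNRIN of set 1, and 6.15 in shCTL replicate 4 against 4.73 and 4.93 in shNYNRIN of set 2. Its shNYNRIN values all lay under the shCTL values of the 7 libraries, although the whole number 5 of shCTL replicate 3 falls among them. It fell by 0.32 ± 0.06 in set 1 (limma, adjusted p = 0.0138) and by 0.29 ± 0.07 in set 2 (adjusted p = 0.0256). Those falls were alike in size, with a difference of 0.03 ± 0.09 (adjusted p = 0.869), and over both sets the value was -0.31 (adjusted p = 0.0606). With shCTL replicate 3 included as deposited, the fall in set 2 was no longer called (adjusted p = 0.187), and with 0.5 added to that library it was (adjusted p = 0.0310).

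**Figure D2:**
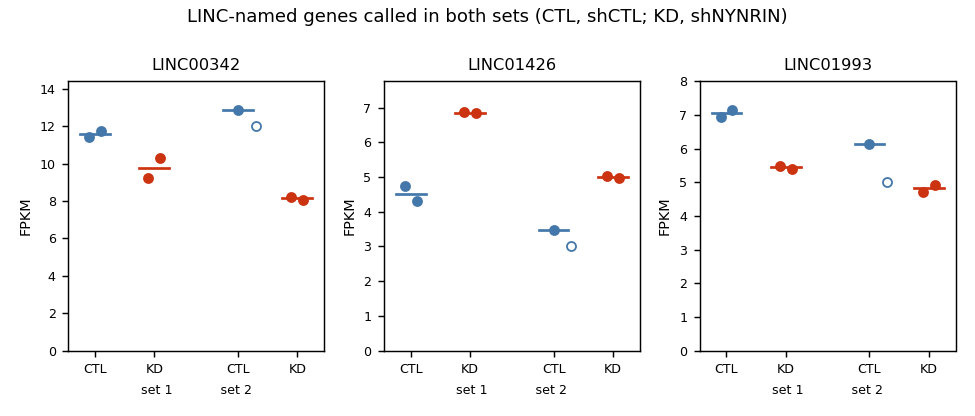
FPKM (linear axis from 0) of LINC00342, LINC01426 and LINC01993, with 1 point per library (blue shCTL, red shNYNRIN), the mean of each group as a bar, and the whole-number library shCTL replicate 3 as an open circle that is not in the mean. LINC01426 is higher in shNYNRIN in both sets, at 6.86 and 6.84 FPKM in set 1, and the other genes are lower.

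In set 1, 13 LINC genes passed, 2 higher and 11 lower, where 15.9% of all genes tested passed (9.33% higher and 6.61% lower; limma, adjusted p under 0.05). The 13 are 9.49% of the LINC genes, and 35 had an unadjusted p under 0.05. The median log2 difference of the LINC genes was -0.02, against 0.03 over all genes. With upper-quartile scaling the LINC split was 2 higher and 14 lower, and that over all genes turned from 1207 higher and 855 lower to 807 and 1173. No LINC gene with a mean under 2 FPKM passed in set 1, against 2 of the 47 from 2 to 5 FPKM, 7 of the 17 from 5 to 10 and 4 of the 11 at 10 or more. The median standard error was 0.11 for the LINC genes and 0.07 for all genes. Without shCTL replicate 1 the count of 13 became 3, and likewise 3 without shCTL replicate 2. The count over all genes tested fell in those fits too, so the loss is not particular to LINC genes. LINC01426 and LINC01094 stayed past the threshold under every alternative run.

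LINC02761 had the largest fall of set 1, from 3.20 and 4.24 FPKM in shCTL to 1.95 and 1.74 in shNYNRIN, or -0.72 ± 0.14 (SE; limma, adjusted p = 0.0189). It lies on chromosome 11, and the nearest coding start, 5289 bases away, is that of WNT11, a secreted signalling protein. LINC02980, on chromosome 6, read 5.56 and 5.16 FPKM in shCTL and 3.003 and 3.74 in shNYNRIN, or -0.55 ± 0.10 (adjusted p = 0.0168). LINC02772, on chromosome 1, read 13.2 and 13.7 against 8.10 and 9.79 FPKM, or -0.54 ± 0.09 (adjusted p = 0.01001). In each of these genes the groups of set 1 were apart, as they were in 51.1% of the LINC genes and 59.5% of all genes tested. In set 2 the 3 genes pointed the other way and did not pass, with log2 differences of 0.55, 0.06 and 0.19 (adjusted p = 0.0663, 0.770 and 0.262).

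LINC01094, on chromosome 4, was the most abundant LINC gene to fall in set 1, from 22.2 and 21.7 FPKM in shCTL to 17.1 and 16.4 in shNYNRIN, or -0.37 ± 0.05 (SE; limma, adjusted p = 0.00576). In set 2 it read 16.0 in shCTL replicate 4 and 15.5 and 16.6 in shNYNRIN, with no separation (log2 difference 0.00, adjusted p = 0.970). The control value of set 2 was thus as low as the knockdown values of set 1. LINC01806 read 6.57 and 6.65 FPKM in shCTL against 4.90 and 4.84 in shNYNRIN of set 1 (-0.37, adjusted p = 0.00935), and 5.84 against 6.16 and 6.58 in set 2. LINC01963, LINC02977 and LINC00662 fell by 0.33, 0.30 and 0.28 in set 1 (adjusted p = 0.0200, 0.0343 and 0.0221).

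LINC01089, also known as LIMT, read 9.85 in each shCTL library of set 1 and 7.80 and 7.47 FPKM in shNYNRIN, and fell by 0.33 ± 0.06 (limma, adjusted p = 0.0140). In set 2 it read 7.20 FPKM in shCTL replicate 4 and 5.97 and 6.52 in shNYNRIN, lower as well but not past the threshold (-0.18, adjusted p = 0.126). Its start is 274 bases from that of SETD1B, a histone H3 lysine 4 methyltransferase gene on the opposite strand, and its body overlaps RHOF on its own strand, so some reads could belong to RHOF. SETD1B had a log2 difference of -0.16 in set 1 (adjusted p = 0.0600) and 0.02 in set 2.

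The rises of set 1 were LINC01426, given above, and LINC02805. LINC02805, on chromosome 1 beside NBPF11, read 12.3 and 13.9 FPKM in shCTL and 17.3 and 17.0 in shNYNRIN, and rose by 0.36 ± 0.06 (limma, adjusted p = 0.0151). In set 2 it read 12.5 in shCTL replicate 4 against 11.8 and 12.7, so that its groups overlapped there. NBPF genes form a family of near-identical copies on this chromosome, so the assignment of reads in this region is uncertain.

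**Figure D3:**
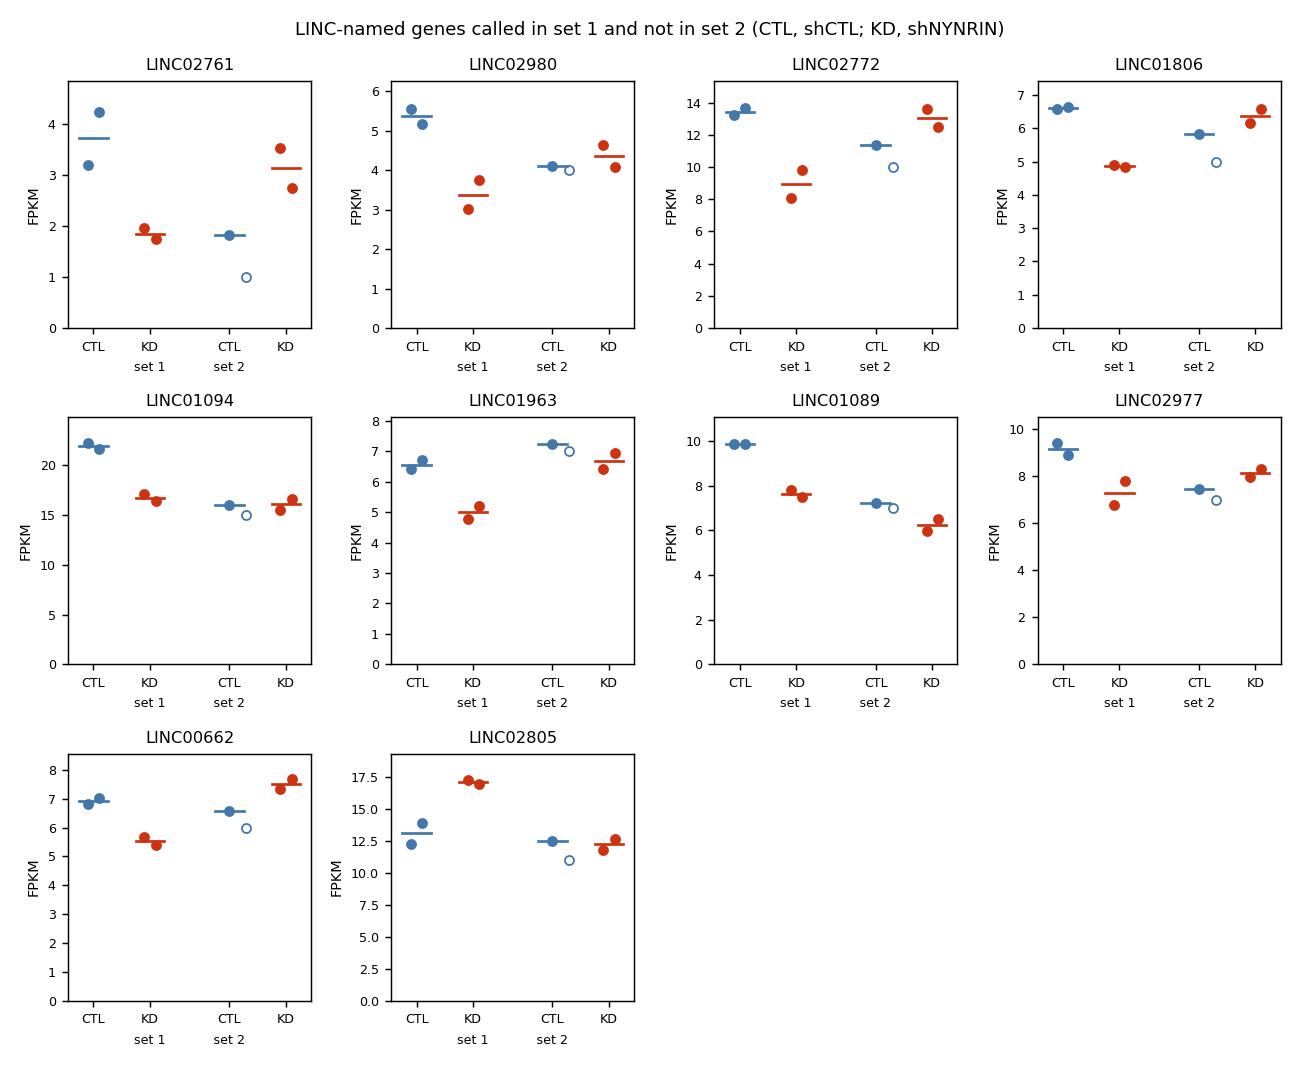
FPKM (linear axes from 0) of the 10 LINC genes called in set 1 and not in set 2, drawn with 1 point per library, bars for group means and an open circle for the whole-number library. The first 9 panels are lower in shNYNRIN of set 1, such as LINC02772 at 8.10 and 9.79 FPKM against 13.2 and 13.7, and LINC02805 is higher. In set 2 the groups of LINC01094 lie together, at 16.0 FPKM against 15.5 and 16.6.

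In set 2, 22 LINC genes passed, 15 higher and 7 lower, where 20.3% of all genes tested passed (11.6% higher and 8.71% lower). The 22 are 16.1% of the LINC genes, and 38 had an unadjusted p under 0.05. The median log2 difference was 0.03, against 0.02 over all genes. Of the genes with a mean under 2 FPKM 5 of 62 passed, and 8 of 47, 6 of 17 and 3 of 11 in the higher classes. The test has 1 control library, so each fold change is measured from its value alone. Among the 15 rises, shCTL replicate 4 lay below both shCTL libraries of set 1 in 14, where it did so in 69 of all 137 LINC genes. Among the 7 falls it lay above both in 5, where it did so in 40 of the 137. The whole numbers of shCTL replicate 3, which entered no test, were under both shNYNRIN values of set 2 by at least 1 in 15 of the 15 rises and at or over both in 6 of the 7 falls. The share over all LINC genes was not counted, the 22 were picked by their gap in set 2, and that library reads low. These counts are therefore no test of the calls. Without shNYNRIN replicate 3 the count of 22 became 11, and 10 without shNYNRIN replicate 4. The count over all genes tested fell in those fits too. LINC02160, LINC02744, LINC02506, LINC01366, LINC01215 and LINC00342 stayed past the threshold under every alternative run for them.

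LINC02160, on chromosome 5, rose most in set 2. It read 2.21 FPKM in shCTL replicate 4 and 2 in shCTL replicate 3, against 6.67 and 5.64 in shNYNRIN, and so rose by 1.15 ± 0.10 (SE; limma, adjusted p = 0.00104). Its values in set 1 were 5.32 and 5.07 in shCTL and 4.34 and 4.04 in shNYNRIN, apart in the other direction (-0.26, adjusted p = 0.0900). LINC02744, on chromosome 11, read 3.55 and 3 in the shCTL libraries of set 2 and 7.77 and 8.22 in shNYNRIN, a rise of 0.98 ± 0.10 (adjusted p = 0.00130), against 5.49 and 5.58 in shCTL and 4.42 and 5.23 in shNYNRIN of set 1. For both genes the 2 shCTL libraries of set 2 were the lowest of all 8.

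Smaller rises of set 2 followed in genes of low level. LINC02757 read 0.535 FPKM in shCTL replicate 4 and 1.60 and 2.25 in shNYNRIN, LINC02228 read 0.851 against 2.33 and 1.97, and LINC02917 read 0.659 against 1.69 and 1.92. All 3 were listed at 0 in the whole numbers of shCTL replicate 3. Their rises were 0.92 ± 0.20, 0.76 ± 0.13 and 0.76 ± 0.18 (limma, adjusted p = 0.0203, 0.00971 and 0.0261). LINC02964 rose by 0.72, LINC00861 by 0.68, LINC00534 by 0.67 and LINC01447 by 0.60 (adjusted p = 0.0129, 0.0116, 0.0314 and 0.0220).

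Among more abundant genes, LINC01876 on chromosome 2 read 5.42 and 5 FPKM in the shCTL libraries of set 2 against 8.72 and 8.10 in shNYNRIN, and rose by 0.55 ± 0.09 (limma, adjusted p = 0.00699). LINC02506, the highest LINC gene, rose by 0.39 ± 0.04 in set 2 (adjusted p = 0.00221), and its 0.11 in set 1 did not pass (adjusted p = 0.0843). LINC01366 read 12.9 and 13.2 FPKM in shCTL and 13.5 and 14.95 in shNYNRIN of set 1, and 11.8 against 15.7 and 17.5 in set 2, where it rose by 0.46 ± 0.08 (adjusted p = 0.0107). In both of the last genes all 4 shNYNRIN values were above the shCTL values. LINC00910 and LINC00888 rose by 0.47 and 0.39 (adjusted p = 0.0335 and 0.0420).

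The falls of set 2 were led by LINC00504 and LINC01215. LINC00504, on chromosome 4, read 3.78 and 4 FPKM in the shCTL libraries of set 2 and 2.07 and 1.89 in shNYNRIN, a fall of 0.68 ± 0.11 (SE; limma, adjusted p = 0.00711), against 2.64 and 2.39 in shCTL and 2.28 and 2.16 in shNYNRIN of set 1. LINC01215, on chromosome 3, read 6.59 in shCTL replicate 4 and 5 in shCTL replicate 3, against 3.99 and 3.50, a fall of 0.68 ± 0.11 (adjusted p = 0.00792). In set 1 LINC01215 read 6.52 and 6.70 in shCTL against 6.63 and 5.55, with overlapping groups.

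LINC02918, whose start is 388 bases from that of the importin gene IPO13, read 2.09 FPKM in shCTL replicate 4 and 1.18 and 1.09 in shNYNRIN, and fell by 0.53 ± 0.13 in set 2 (limma, adjusted p = 0.0325). The whole number 1 of shCTL replicate 3 stood with the shNYNRIN values, and with that library in the test the call was lost, both as deposited (adjusted p = 0.468) and with 0.5 added (adjusted p = 0.0686). LINC02694, which GENCODE 29 still lists as the coding gene C15orf53, read 6.09 and 5 in shCTL against 4.14 and 3.83, and fell by 0.51 ± 0.09 (adjusted p = 0.00926). LINC02604 read 3.67 in shCTL replicate 4 against 2.60 and 2.75 and fell by 0.35 ± 0.09 (adjusted p = 0.0403), a call that was lost with shCTL replicate 3 as deposited (adjusted p = 0.141) and kept with 0.5 added to it (adjusted p = 0.0158).

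**Figure D4:**
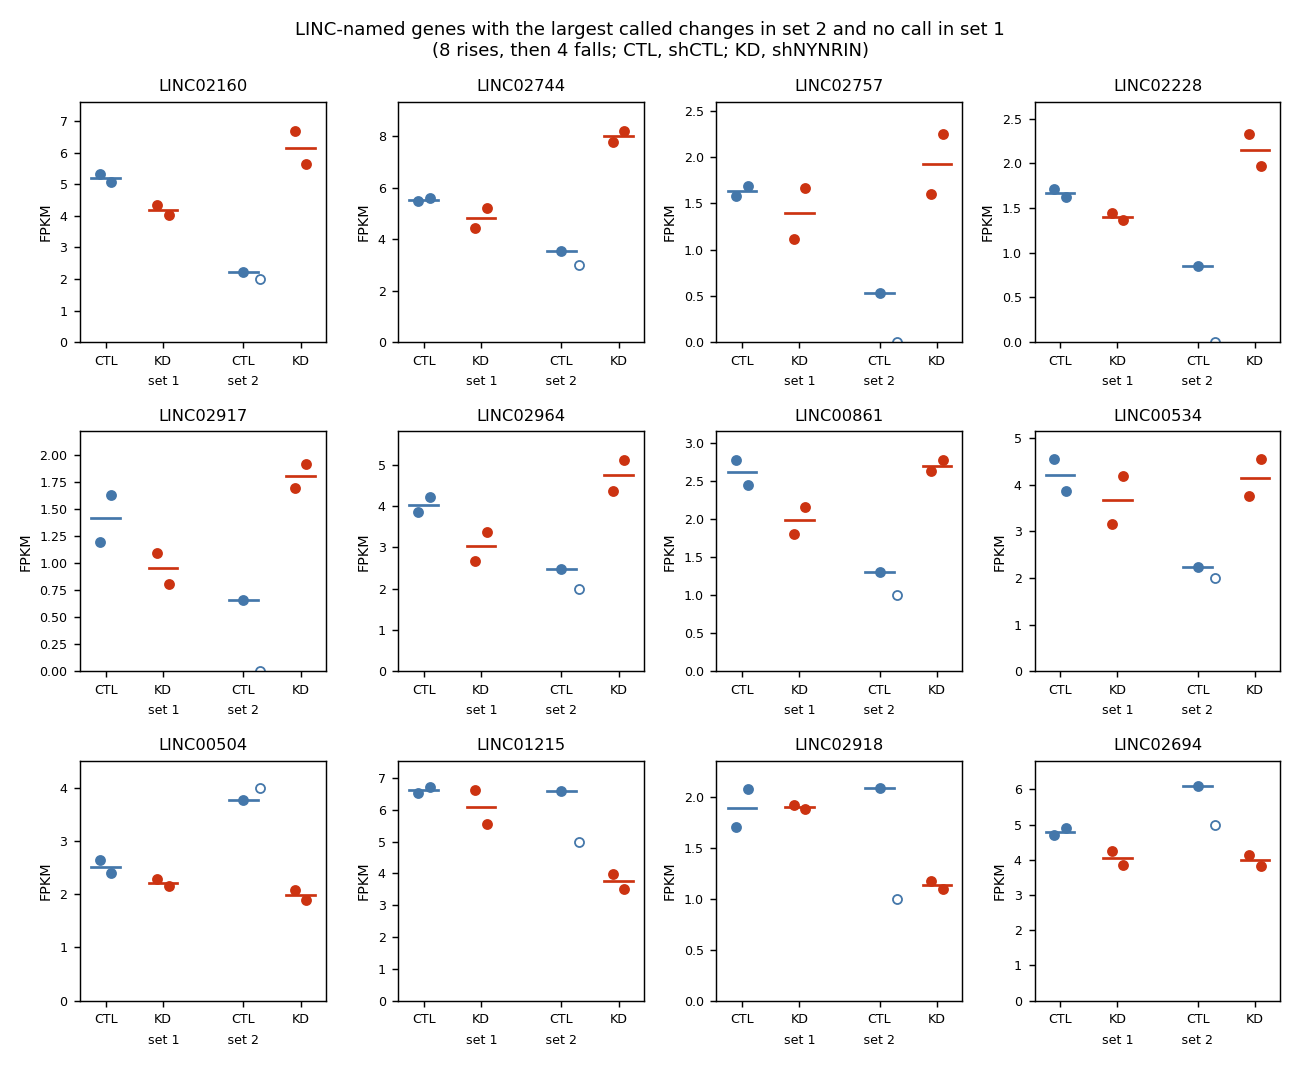
FPKM (linear axes from 0) of 12 LINC genes called in set 2 and not in set 1, the 8 largest rises and then the 4 largest falls, with 1 point per library, bars for group means and an open circle for the whole-number library. In the panels of the rises the shCTL value of set 2 is below both shCTL values of set 1, as for LINC02160 at 2.21 FPKM against 5.32 and 5.07.

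The effects of the 2 sets were unalike across the LINC genes. Among the 137, 3 passed in both sets with the same sign, 10 in set 1 alone, 19 in set 2 alone, and 104 in no comparison. Of all genes tested 15.9% passed in set 1 and 20.3% in set 2. Passes in both sets were not counted over all genes, so whether 3 is few cannot be said. The 137 LINC genes are no independent replicates and share their libraries within each set. Across them Pearson's r between the log2 differences of set 1 and set 2 was -0.04, and it was -0.02 across all 12939 genes. All 4 shNYNRIN libraries lay on 1 side of the 3 shCTL libraries in 17 LINC genes, 8 higher and 9 lower. That is 12.4% of them, against 16.2% of all genes tested.

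A test of the difference itself, set 2 minus set 1, called 24 LINC genes, 19 with a higher and 5 with a lower value in set 2, where 20.4% of all genes passed (10.3% higher and 10.02% lower). The 24 are 17.5% of the LINC genes, their median difference was 0.08 against -0.01 over all genes, and 35 had an unadjusted p under 0.05. In 20 of the 24 the log2 differences of the sets had opposite signs. Genes picked for a large difference tend to have opposite signs, and the share over all genes called was not counted. LINC02160 led with 1.41 ± 0.14 (limma, adjusted p = 0.00132), followed by LINC02761 with 1.27 ± 0.22 (adjusted p = 0.00986) and LINC02744 with 1.15 ± 0.12 (adjusted p = 0.00192). LINC01215, LINC00504, LINC02604, LINC02805 and LINC00342 had the lower values in set 2, from -0.57 to -0.38. Of the 24, 8 had passed in set 1 alone, 14 in set 2 alone, LINC00342 in both and LINC00989 in neither. LINC00989, named because it is that exception and after its values were seen, read 3.71 and 3.66 against 3.30 and 2.87 FPKM in set 1 and 2.82 against 4.21 and 3.59 in set 2. The count of 24 became 15 and 11 without shCTL replicates 1 and 2, and 11 and 10 without shNYNRIN replicates 3 and 4. The count over all genes tested fell in those fits too. LINC02160, LINC02744, LINC02964, LINC01876 and LINC02772 stayed past the threshold under every alternative run.

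**Figure D5:**
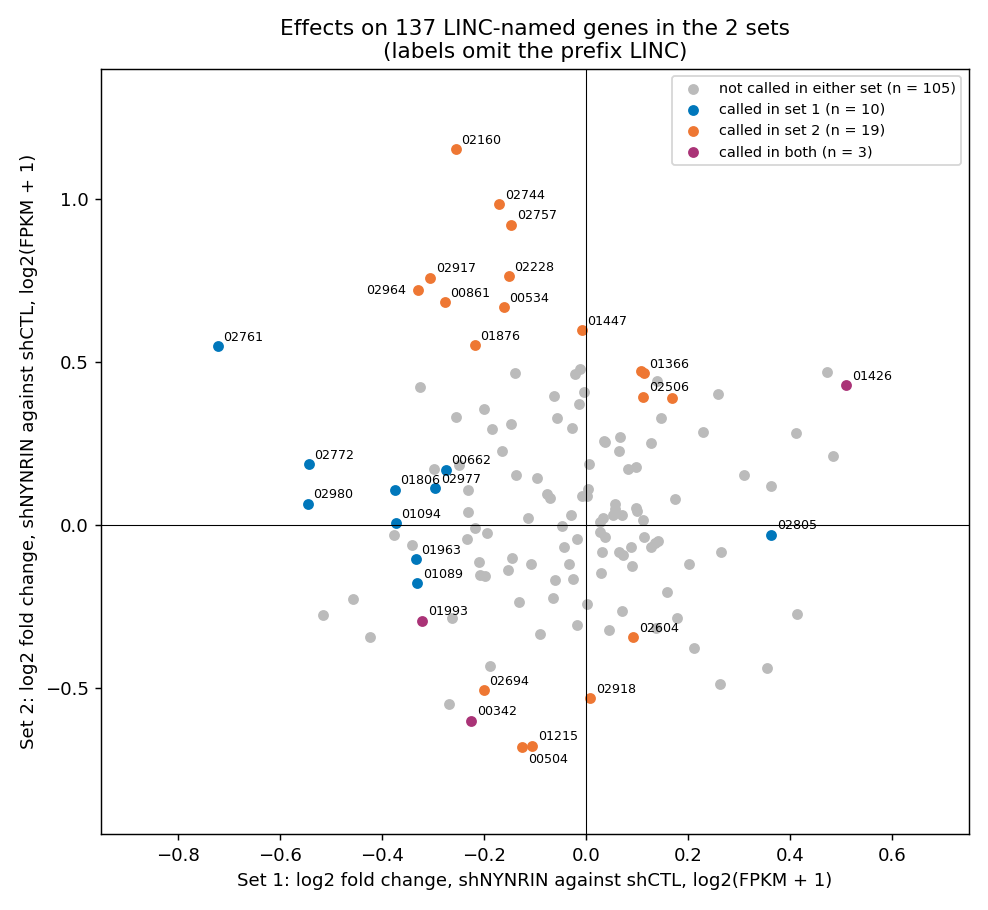
Log2 fold change (shNYNRIN against shCTL, on log2(FPKM + 1)) of each of the 137 LINC genes in set 1 (horizontal axis) and set 2 (vertical axis), coloured by the set in which the gene passed. The cloud has no slope, with an r of -0.04, LINC02160 lies highest at 1.15 in set 2, and LINC02761 lies farthest left at -0.72 in set 1.

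Positions came from GENCODE 29, matched by Ensembl identifier for 132 of the 137 genes, and 119 of these overlapped no coding gene. Its type was lincRNA for 101 and antisense for 13, and 10 LINC genes overlapped a coding gene on the same strand and 3 on the opposite strand. The median distance to the nearest coding start was 64572.5 bases. The exonic length had a median of 2415 bases and ranged from 196 to 14794.

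The nearest coding gene, here by the distance between starts, was itself tested for 85 LINC genes. RUNX1, given above as nearest to LINC01426 by the edge of its body, is not the neighbour in these counts. Across those pairs Pearson's r between the log2 differences of a LINC gene and its neighbour was 0.12 in set 1 and 0.25 in set 2. Of the 10 LINC genes called in set 1 with a tested neighbour, 1 had a neighbour that was called, with the same sign, where 15.9% of all genes passed. Of the 16 called for the difference between sets with a tested neighbour, 8 had a neighbour called for the difference, 3 of them with the same sign, where 20.4% of all genes passed. LINC01876 and NR4A2, a nuclear receptor gene and immediate early gene 87398 bases away, both rose in set 2, NR4A2 from 3.50 FPKM in shCTL replicate 4 to 5.16 and 5.56 in shNYNRIN (0.50, limma, adjusted p = 0.0214). LINC02977 and SUSD1, a gene of a sushi domain protein, both fell in set 1, SUSD1 from 56.7 and 54.6 FPKM to 43.1 and 45.2 (-0.33, adjusted p = 0.00394).

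In other pairs 1 gene passed in a set where the other did not. CD47, which encodes a surface protein that restrains phagocytosis and starts 33959 bases from LINC01215, fell by 0.20 in set 1 (limma, adjusted p = 0.01002) and had 0.14 in set 2 (adjusted p = 0.0532), where LINC01215 fell. WNT11 rose in set 2, from 2.04 to 3.21 and 3.21 FPKM (0.47, adjusted p = 0.0331), with 0.55 for LINC02761 (adjusted p = 0.0663). LRRC32, which encodes a docking protein of latent TGF-beta, rose by 0.50 in set 1 (adjusted p = 0.00198), where LINC02757 had -0.15 (adjusted p = 0.580). Of 7 LINC genes with a start within 1000 bases of a coding start on the opposite strand (LINC00205, LINC01089, LINC01424, LINC01547, LINC02340, LINC02585 and LINC02918), LINC01089 passed in set 1 and LINC02918 in set 2, and neither of those had a called neighbour.

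LINC genes also lie close to each other: 8 pairs were within 100000 bases. In none of these pairs did both pass in the same set. Since 9.49% of the LINC genes passed in set 1 and 16.1% in set 2, 8 pairs are too few to say whether close genes move alike. LINC00662 fell by 0.28 in set 1 while LINC02987, which overlaps it on the other strand, had -0.04 (limma, adjusted p = 0.758), and LINC02694 fell by 0.51 in set 2 while LINC02915, 70185 bases away, had 0.21 (adjusted p = 0.519).

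The authors' deposited table for set 1 gives a q-value under 0.05 to 21 of the 137 LINC genes, 6 higher and 15 lower in shNYNRIN, and to 20.1% of all genes tested (9.47% higher and 10.6% lower). That is 15.3% of the LINC genes. Of the 13 called here in set 1, 12 had such a q-value with the same sign, and LINC02761 had a q-value of 0.0868 in the authors' deposited table. The authors' deposited table gives the LINC genes mean normalized counts of 8.04 to 4912, with a median of 205, and 35 of them have fewer than 100.

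Long non-coding RNAs with names of their own were looked at beside the LINC genes. Of 40 listed, 19 were tested, and none passed over both sets (limma; 10 had an unadjusted p under 0.05). In set 1, 1 fell and none rose, and in set 2, 4 rose and 4 fell, with medians of -0.09 and -0.11 against 0.03 and 0.02 over all genes. The share of all genes tested that passed was 15.9% in set 1 and 20.3% in set 2. NORAD, a cytoplasmic RNA that binds Pumilio proteins, fell in each set, from 188 and 189 FPKM to 168 and 173 in set 1 (-0.15, adjusted p = 0.0163) and from 194 to 156 and 153 in set 2 (-0.33, adjusted p = 0.00136). MIR4435-2HG, a microRNA host gene, rose in set 2 from 18.7 to 25.8 and 26.4 FPKM (0.46, adjusted p = 0.00119), as did MIR17HG and CYTOR. HOTAIRM1, a myeloid RNA of the HOXA cluster, rose in set 2 by 0.54 (limma, adjusted p = 0.0344). Its values there were near the detection limit, at 0.586 FPKM in shCTL replicate 4 against 1.34 and 1.29 in shNYNRIN. NEAT1, the scaffold RNA of paraspeckles, fell in set 2 by 0.26 (adjusted p = 0.0194), as did CRNDE and OIP5-AS1.

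Of 36 listed factors of RNA decay, not all of them nuclear, and of transcription termination, 33 were tested and none passed over both sets (limma; 6 had an unadjusted p under 0.05). In set 1, 3 rose and 4 fell, and in set 2, 1 rose and 6 fell, with medians of 0.01 and -0.08 against 0.03 and 0.02 over all genes. In each set 7 of the 33 passed, a share near the 15.9% and 20.3% of all genes. UPF1, the helicase of nonsense-mediated decay, rose in set 1 from 36.2 and 37.8 FPKM to 46.9 and 50.2 (0.38, adjusted p = 0.00391). XRN2, the nuclear 5′ exonuclease that ends transcription, fell from 53.7 and 53.2 to 40.1 and 42.2 FPKM in set 1 (-0.37, adjusted p = 0.00279). SRRT, which links the cap-binding complex to the exosome, moved both ways, by 0.16 in set 1 (adjusted p = 0.0306) and by -0.35 in set 2 (adjusted p = 0.00312), and NCBP1, the large cap-binding subunit, fell by 0.37 in set 2 (adjusted p = 0.00493). Whether these factors bear on the LINC levels was not tested.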

How the data were processed

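RNA from sorted KG-1a cells was sequenced after SMART-Seq v4 amplification, per the labels' protocols. The submitters' processing notes name HTSeq, Cufflinks 2.1.1 and Bowtie 0.12.9, and list hg38 beside mm10 without saying how each was used. Strand setting and annotation are not given. The 7 columns with decimals that the authors deposited are taken to be FPKM, by their range and by the use of Cufflinks, with 0.001 for 0 in the first table. Replicate 3 of shCTL, deposited in whole numbers, is a score here. The first table also holds the authors' deposited mean normalized count (unit taken as a signal), log2 fold change, p-value and q-value.

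Groups and replicate numbers come from the sample titles, and columns were matched through library names. ShCTL replicates 1 to 4 are library names 3, 4, 1 and 2. Log2(FPKM + 1) was tested with limma 3.58.1 (R 4.3.3, mean-variance trend) in 7 libraries for the 12939 genes that reached 1 FPKM in 2 or more of them, two-sided, with Benjamini-Hochberg adjustment over all and a threshold of 0.05. Over both sets, the terms were group and table. Effects within sets and their difference came from the model with the interaction, which takes the spread of the lone set 2 control from the other groups. Since no label says that replicates were separate cultures, p-values reflect only how these libraries vary, perhaps technically. Fold changes understate the change of low genes. The procedure was tested on simulated data.

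The genes, lists and tests were chosen with earlier results of these data known. Genes named are those past the threshold over both sets, the 10 largest rises and falls in each set, the 5 largest differences of each sign between sets, the 10 of highest mean, their nearest coding genes and up to 4 of each list. LINC00888, LINC00910, LINC00989 and members counted in small groups were named in addition. Alternatives were a pseudocount of 0.1, no filter, other scalings, shCTL replicate 3 included, each library left out, and replicate blocks. Same-numbered shCTL and shNYNRIN libraries, by library name, deviated together over 5880 genes of at least 10 FPKM (r of 0.102, 0.141, 0.153 and 0.147). Differently numbered libraries of the same tables did so as well. Their r were 0.180 for shCTL 1 with shNYNRIN 2, 0.144 for 2 with 1, 0.141 for 3 with 4 and 0.162 for 4 with 3. All these pairs span both tables, so the r carry the difference between sets and show nothing particular to the number. The count of called neighbours in set 2 is not reported here.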

Additional observations from a re-analysis of the deposited data

Results flagged for a closer look

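In 23 of the 35 named LINC genes the effect of the hairpin differed between the sets (limma, interaction, adjusted p under 0.05 over all genes). The values are log2 differences of set 2 minus set 1. Those above 1 were 1.41 for LINC02160, 1.27 for LINC02761, 1.15 for LINC02744, 1.07 for LINC02757, 1.06 for LINC02917 and 1.05 for LINC02964. LINC00861 had 0.96, LINC02228 0.91, LINC00534 0.83, LINC01876 0.77 and LINC02772 0.73. LINC02980 had 0.61, LINC01447 0.61, LINC01806 0.48 and LINC00662 0.44. LINC02977 had 0.41, LINC01094 0.38 and LINC02506 0.28. Negative values, a lower effect in set 2, were -0.57 for LINC01215, -0.56 for LINC00504, -0.44 for LINC02604, -0.39 for LINC02805 and -0.38 for LINC00342. The sets also differ in their control libraries and in the depth of the knockdown, which cannot be told apart here.

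In 1 of the 35 named genes, LINC00665, a library of the shNYNRIN group stood apart from the other three: the gap between replicate 1, at 14.2 FPKM, and the nearest of the others was 0.880 of the range, above Dixon's critical value for 4 samples. Chance alone gives such a value in about 1 of 20 groups.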

How the results depend on the processing

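Of 57 results for named LINC genes, 13 stayed past the threshold under every alternative run for them, 2 of 13 in set 1 (LINC01426 and LINC01094), 6 of 20 in set 2, 5 of 23 differences and 0 of 1 over both sets. Over 770 recomputed values 598 kept their call, 172 lost it and 0 changed direction. The count over both sets, 1 gene, became 0 with quantile normalization, 2 with shCTL replicate 3 as deposited, 5 with 0.5 added to that library, 18 with the mean of the set effects, and 0 with the replicate block by library-name number or by title number. Leaving out 1 library gave 0 to 13, the 13 without shCTL replicate 4. Over all genes that fit called 1209 higher and 856 lower, and the mean of the set effects 1388 and 916. The main fit called 25 and 16, and no gene of any kind passed without any other single library. In set 1 the count of 13 became 3 without shCTL replicate 1 and 3 without shCTL replicate 2, and was 3 with the replicate block by title number. In set 2 the count of 22 ranged from 10 to 25 (11 without shNYNRIN replicate 3 and 10 without shNYNRIN replicate 4) and was 7 with that block. For the difference the count of 24 ranged from 10 to 24 (15 and 11 without shCTL replicates 1 and 2, 11 and 10 without shNYNRIN replicates 3 and 4) and was 5 with that block. Without those libraries and with that block, the counts over all genes fell in set 1, in set 2 and for the difference as well. The causes were not tested. Without shCTL replicate 4 the effect of set 2 and the difference could not be fitted. Same-numbered libraries by title had an r of -0.128, -0.174, -0.161 and -0.150. Differently numbered libraries within a set had -0.151, -0.121, -0.135 and -0.151. No scaling moved the median of all genes by as much as 0.1. The depth of single libraries is unknown, and no LINC gene under 2 FPKM passed in set 1, where the median standard error of such genes was 0.14.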

Other observations

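The authors' deposited table gives 9 LINC genes a q-value under 0.05 in set 1 that did not pass here. LINC00891, LINC00964, LINC01088 and LINC02915 have a higher value in shNYNRIN there, with log2 fold changes of 0.85, 0.67, 0.56 and 0.91 in the authors' deposited table. LINC00861, LINC00938, LINC00997, LINC02384 and LINC02964 have lower values, of -0.43, -0.32, -0.76, -0.19 and -0.45 in the authors' deposited table. LINC00891 and LINC02915 read 0.688 and 1.07, and 0.891 and 0.704 FPKM in shCTL of set 1, against 1.31 and 1.90, and 1.23 and 1.83 in shNYNRIN. Both genes kept all 4 shNYNRIN libraries above the 3 shCTL libraries of the 7, as LINC01088 did, while LINC00997 kept all 4 below. The program behind the deposited q-values is not given.

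A further 8 LINC genes have a q-value of 1 in the authors' deposited table. They are the 8 with the lowest mean normalized counts there, from 8.04 for LINC02100 to 33.0 for LINC02340. That value thus goes with low counts and is not read here as a lack of change. Of the 971 LINC rows that only the second table lists, 4 reach 1 FPKM in 2 of the 3 set 2 libraries that carry decimals.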
